A study of Mus musculus with 12 samples.

Results

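The 6 genes described here sense or clear extracellular purine nucleotides and NAD at the surface of T cells. They were chosen by name as P2rx7, Art2b, Cd38, Entpd1, Nt5e and Adora2a, and all 6 were found among the 17523 genes of the table. The 12 RNA libraries came from splenic CD4+ T cells of unmanipulated, young adult *Gr/fr* mice on the C57BL/6 strain. All groups carry the same alleles: a *Csf2* allele that also encodes iCre and BFP, and a Rosa26 eYFP allele that iCre switches on for good. YFP+ cells are therefore cells that express or once expressed GM-CSF, or descend from such cells, and YFP- cells show no such history as far as iCre recombined. The groups, with 3 libraries each, were naive YFP- cells, naive YFP+ cells, effector memory (TEM) YFP- cells and TEM YFP+ cells. The sort gates took naive cells as CD44- and TEM cells as CD44hi, beside other surface markers. The labels name no treatment in any group.

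Extracellular ATP opens P2X7, an ion channel encoded by P2rx7, and strong opening can kill a T cell. ART2.2, encoded by Art2b, takes NAD released from damaged cells and attaches its ADP-ribose to P2X7, which opens the channel without ATP. CD38 consumes NAD and so limits that reaction, while CD39 (Entpd1) trims ATP and ADP to AMP and CD73 (Nt5e) turns AMP into adenosine, which the Gs-coupled receptor encoded by Adora2a reads as an inhibitory signal.

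Reads assigned to genes numbered 40974124 to 57822269 in a library. Values are normalized counts, which are reads divided by a size factor that equalizes the libraries, and no member had fewer than 34 reads in any library. Groups were compared on log2(normalized count + 1) with limma in 1 fit of all libraries. The 15587 genes that reached 5 normalized counts in 3 or more libraries were tested, and the calling threshold was 0.05 for the p adjusted by Benjamini and Hochberg. All 6 members passed that filter. Cd44, which encodes the adhesion receptor used in the sort, had 2334 to 3372 normalized counts in the naive libraries and 21778 to 29383 in the TEM libraries. The labels name no gate against regulatory T cells, and Foxp3 had 11161 to 19208 normalized counts in the TEM YFP- libraries against 6198 to 10484 in the TEM YFP+ libraries. Because these are bulk samples, fewer cells of a type that expresses a gene and less RNA per cell cannot be told apart. P-values rest on the spread between libraries within groups, pooled for each gene over all 4 groups and moderated across genes. An exact permutation test of 3 libraries against 3 cannot go below 0.1.

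P2rx7 and Art2b encode the channel and the enzyme that primes it, and their levels moved together from library to library as described further on, so their promoter windows are shown. RefSeq (GRCm38.p6) windows of 250 bases before to 50 bases after a start site were held for 5 members, in 7 windows. Each window below is written 5′ to 3′ in the direction of the gene, with matches to the AP-1 letters TGANTCA or the T-box letters GGTGTGA in capitals. The P2rx7 windows lie at chr5:122643677-122643976 and chr5:122650133-122650432 on the plus strand, and the Art2b window at chr7:101581112-101581411 on the minus strand, inside the annotated span of the gene.
P2rx7 first start: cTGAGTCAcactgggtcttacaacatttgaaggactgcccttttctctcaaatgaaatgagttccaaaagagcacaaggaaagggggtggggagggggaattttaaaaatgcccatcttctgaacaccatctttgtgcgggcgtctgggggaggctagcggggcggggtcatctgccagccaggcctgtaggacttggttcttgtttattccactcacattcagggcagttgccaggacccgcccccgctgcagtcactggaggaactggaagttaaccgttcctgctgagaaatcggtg
P2rx7 second start: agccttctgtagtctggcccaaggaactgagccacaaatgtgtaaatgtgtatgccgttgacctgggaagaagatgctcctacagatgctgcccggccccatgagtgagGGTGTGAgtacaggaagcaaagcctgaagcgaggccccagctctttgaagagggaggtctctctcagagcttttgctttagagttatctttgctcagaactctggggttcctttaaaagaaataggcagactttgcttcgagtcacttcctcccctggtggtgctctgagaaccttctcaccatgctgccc
Art2b: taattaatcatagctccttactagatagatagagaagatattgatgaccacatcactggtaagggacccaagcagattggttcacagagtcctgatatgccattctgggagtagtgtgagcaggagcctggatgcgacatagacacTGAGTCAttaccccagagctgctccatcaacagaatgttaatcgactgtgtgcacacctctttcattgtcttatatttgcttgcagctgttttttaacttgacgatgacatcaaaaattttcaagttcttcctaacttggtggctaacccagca
The first P2rx7 window held TGANTCA at position -249 from the start site, and the Art2b window held it at position -104. The second P2rx7 window lacked the AP-1 letters and held the T-box letters at position -141. On both strands, TGANTCA stood in 7.81% of 32851 promoter windows of this length and GGTGTGA in 3.98%. Other letters searched on both strands were those of RUNX (TGTGGT, in 16.8% of all windows), STAT (TTCNNNGAA, 8.3%) and CRE (TGACGTCA, 1.79%). Among the 7 windows of the members, TGTGGT matched in Art2b at position -204 and in the second Entpd1 window at position 34, and the STAT and CRE letters matched in none. A match here is a description of the letters and not a binding site.

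P2rx7 (Entrez 18439) spans 122643927 to 122692336 on chromosome 5, plus strand, where the annotation also holds Mir8115 within its bounds. It had 521, 448 and 880.1 normalized counts in the naive YFP- libraries of replicates 1, 2 and 3 and 728, 642 and 1060.3 in the naive YFP+ libraries. In TEM cells it had 7213, 6783 and 8757 in the YFP- libraries and 11179.8, 9232 and 14239.9 in the YFP+ libraries. Every TEM library lay above every naive library, and every TEM YFP+ library above every TEM YFP- library, while the naive YFP groups overlapped. TEM against naive, P2rx7 was 12.8-fold higher in YFP- cells (log2 fold change 3.67, SE 0.25, adjusted p = 1.8e-07) and 14.3-fold higher in YFP+ cells (3.84, SE 0.25, adjusted p = 1.7e-07).

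Art2b (Entrez 11872) spans 101575729 to 101585591 on chromosome 7, minus strand, and overlaps Gm45995. It had 1085, 1021 and 1441 normalized counts in naive YFP- cells and 1023, 813 and 1203 in naive YFP+ cells. The TEM YFP- libraries had 1668, 1571 and 2165 and the TEM YFP+ libraries 2729.7, 2364 and 3278. Art2b was thus already abundant in naive cells, and its TEM libraries lay above the naive libraries of the same YFP status without overlap. The difference between TEM and naive cells was 1.53-fold in YFP- cells (log2 fold change 0.61, SE 0.18, adjusted p = 0.0144) and 2.76-fold in YFP+ cells (1.47, SE 0.18, adjusted p = 3.9e-05). The former lost its call without naive YFP- replicate 2 (adjusted p = 0.0583) or TEM YFP- replicate 3 (adjusted p = 0.0688). Reads of Art2b could be shared with Art2a, a near-identical neighbour that RefSeq lists as a transcribed pseudogene, so the split between them is uncertain. Art2a had 10.4 to 21.2 normalized counts in naive YFP- cells, 3.71 to 13.8 in naive YFP+ cells, 144 to 600.3 in TEM YFP- cells and 273 to 786 in TEM YFP+ cells. Its highest TEM values were in replicate 2, where Art2b was lowest.

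Cd38 (Entrez 12494) spans 43868809 to 43912374 on chromosome 5, plus strand, and overlaps Gm16015. It had 39.2, 76.4 and 55.3 normalized counts in naive YFP- cells and 48.2, 187 and 47.4 in naive YFP+ cells, against 1350.1, 1272 and 1432 in TEM YFP- cells and 1989.7, 1535 and 1808 in TEM YFP+ cells. Cd38 was scarce in naive cells and had a ratio in YFP- cells close to that of Entpd1 given below, 24.2-fold (log2 fold change 4.59, SE 0.42, adjusted p = 2.2e-06), with 23.1-fold in YFP+ cells (4.53, SE 0.42, adjusted p = 3.7e-06). Replicate 2 of the naive YFP+ cells stood apart from the other naive libraries in Cd38. The summed level of 7 macrophage and neutrophil markers was 3799 in that library and 414 to 1043 in the other naive libraries. Conventional (2247) and plasmacytoid (3775) dendritic cell markers also had their highest naive sums there. So did B cell (1917) and plasma cell markers (3822), while the other marker lists did not. The part of such cells in its Cd38 value was not tested.

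Entpd1 (Entrez 12495) spans 40612366 to 40741602 on chromosome 19, plus strand, and overlaps Gm16027, Gm8783 and Gm41846. Its naive values were 111, 118 and 170.5 normalized counts in YFP- cells and 90.3, 228 and 64.2 in YFP+ cells, the 228 again in naive YFP+ replicate 2. In TEM cells the values were 2694, 2793 and 3081 in YFP- cells and 2753, 2794 and 3078 in YFP+ cells. The TEM libraries lay far above all naive libraries and the TEM YFP groups covered nearly the same range. Entpd1 was 21.7-fold higher in TEM than in naive cells without YFP (log2 fold change 4.44, SE 0.34, adjusted p = 5.4e-07) and 25.9-fold higher with YFP (4.69, SE 0.34, adjusted p = 4.4e-07).

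Nt5e (Entrez 23959) spans 88327609 to 88372089 on chromosome 9, plus strand, with no overlapping gene. It had 1230.1, 1344 and 1232 normalized counts in naive YFP- cells, 1517, 1767 and 1700.2 in naive YFP+ cells, 8823, 11473 and 8092 in TEM YFP- cells and 7313, 14483 and 8383 in TEM YFP+ cells. All TEM libraries exceeded all naive libraries, and in TEM cells replicate 2 was the highest in both YFP groups. The same 2 libraries had the highest sums of 6 follicular helper T cell markers, 39371 and 47092 against 16577 to 26081 in the other TEM libraries. Their sums of both dendritic cell lists and of macrophage and neutrophil, invariant NKT, B cell and CD8 markers were the lowest of their groups. Their sums of regulatory T cell and of plasma cell markers were not the lowest in both groups. The part of such cells in the Nt5e values was not tested. Nt5e was 7.38-fold higher in TEM than in naive YFP- cells (log2 fold change 2.88, SE 0.21, adjusted p = 2.8e-07) and 5.79-fold higher in YFP+ cells (2.53, SE 0.21, adjusted p = 1.1e-06).

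Adora2a (Entrez 11540) spans 75316877 to 75334792 on chromosome 10, plus strand, with no overlapping gene. It had 1604, 1334 and 1665 normalized counts in naive YFP- cells, 1778, 1438 and 1855 in naive YFP+ cells, 3149, 2967 and 3059 in TEM YFP- cells and 4116, 3676 and 4181 in TEM YFP+ cells. The naive groups overlapped, the TEM groups did not, and each TEM library exceeded each naive library. TEM cells had 2.00-fold (log2 fold change 1.00, SE 0.11, adjusted p = 1.0e-05) and 2.37-fold (1.25, SE 0.11, adjusted p = 2.5e-06) the naive level without and with YFP.

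**Figure D1:**
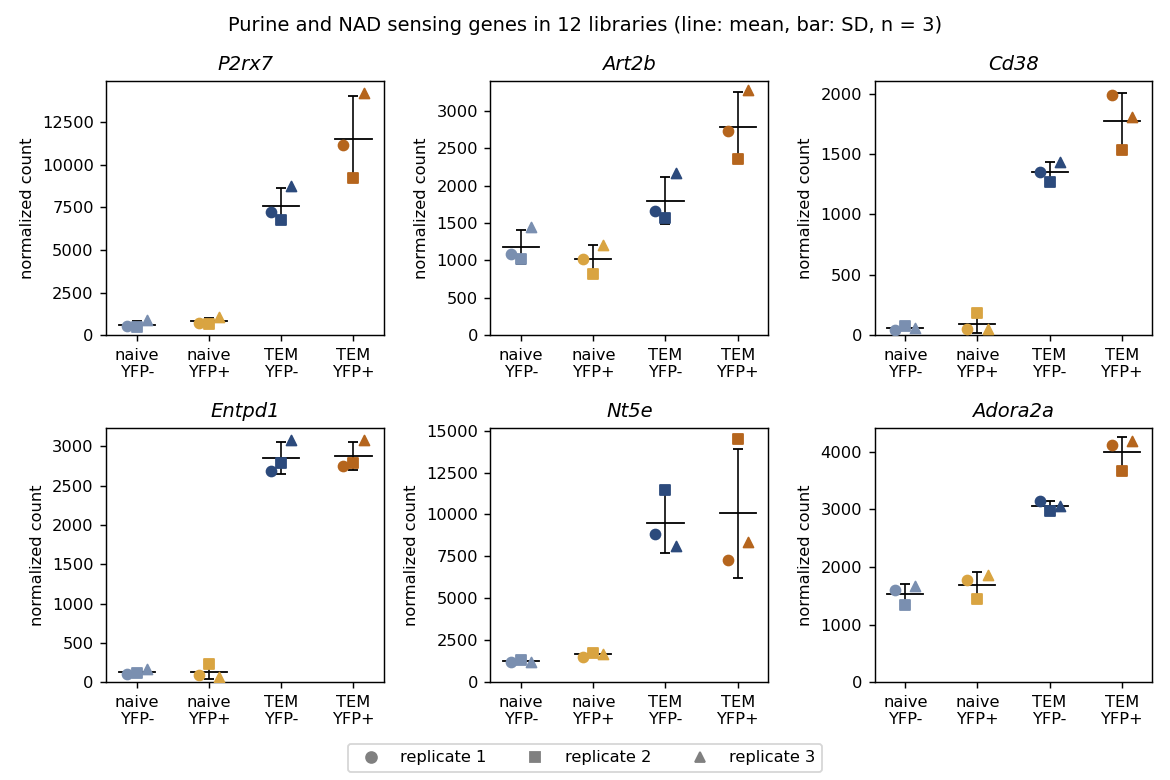
Normalized counts (linear axes from 0) of the 6 genes in the 12 libraries by group, with 1 marker shape per replicate number, a line at the mean and a bar for the SD of 3 libraries. All members lie higher in TEM than in naive cells, with Cd38 and Entpd1 near the bottom of the axis in naive cells and Art2b and Adora2a well above it.

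The question of the first comparison is which of these genes differ between naive and effector memory cells. All 6 members rose in TEM cells, both in YFP- and in YFP+ cells, and in each comparison the libraries of the compared groups did not overlap for any of the 6. Among all tested genes, 29.9% were called higher and 19.9% lower in TEM YFP- cells, 24.7% higher and 16.7% lower in TEM YFP+ cells, and 59% and 48.7% did not overlap in the YFP- and the YFP+ comparison. The median log2 fold change of the 6 members was 3.28 in YFP- cells, against 0.05 over all tested genes, and 3.19 in YFP+ cells, against 0.03. P2rx7, Entpd1, Nt5e and Cd38 exceeded a log2 fold change of 2 in both comparisons, whereas Art2b and Adora2a did not.

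Markers of other cell types and T cell subsets rose in the same comparison. In YFP- cells 10 of 10 plasmacytoid dendritic cell markers, 6 of 6 conventional dendritic cell markers and 5 of 7 macrophage and neutrophil markers were called higher in TEM than in naive cells, and in YFP+ cells 6, 5 and 1 were. Itgam, in the last of these lists, was called lower in YFP+ cells. The summed conventional dendritic cell markers had 551 to 1167 normalized counts in the naive YFP- libraries and 43073 to 86969 in the TEM YFP- libraries, and 737 to 2247 and 2393 to 6064 in the YFP+ libraries. All 6 follicular helper and 6 of 7 regulatory T cell markers rose with either YFP status, as did 4 of 6 invariant NKT markers in YFP- and 6 of 6 in YFP+ cells. The remaining regulatory T cell marker, Gpr83, was called lower with either YFP status. Of 5 plasma cell markers 4 rose in YFP- and 3 in YFP+ cells. In YFP- cells 5 of 7 B cell markers fell and 1, Cd79b, rose, and in YFP+ cells none of them was called. The part of these cells in the rise of the members was not tested.

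Divided by the length of the exons, the order of the levels differed between naive and TEM cells. In naive YFP- cells Adora2a came first, with 501 ± 57.6 normalized counts per kb (SD, n = 3), and Art2b followed with 418 ± 80.1, with libraries that overlapped. Nt5e had 147 ± 7.61, P2rx7 103 ± 38.8, Entpd1 23.8 ± 5.86 and Cd38 14.6 ± 4.80 per kb. The libraries of Nt5e and P2rx7 overlapped, while those of the other neighbours in this order, Entpd1 and Cd38 included, did not. Naive YFP+ cells had the same order for the first 4 genes (Adora2a 552 ± 72.4, Art2b 358 ± 69.0, Nt5e 193 ± 15.0 and P2rx7 136 ± 37.0), of which only Nt5e and P2rx7 overlapped, and Cd38 (24.2 ± 20.6) and Entpd1 (22.9 ± 15.8) overlapped as well.

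In TEM YFP- cells P2rx7 was the highest, with 1270.4 ± 174 normalized counts per kb, and the libraries of Nt5e (1100.1 ± 207) overlapped it. Adora2a had 999 ± 29.7, which overlapped Nt5e, and Art2b had 637 ± 113, Entpd1 512 ± 36.0 and Cd38 347 ± 20.5 per kb, each below the gene before it without overlap. In TEM YFP+ cells P2rx7 had 1935 ± 423, Adora2a 1303 ± 89.7, Nt5e 1169 ± 450, Art2b 987 ± 163, Entpd1 515 ± 31.7 and Cd38 457 ± 58.9 per kb, where the neighbours from Adora2a to Art2b, and Entpd1 and Cd38, overlapped.

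The next comparison asks how cells with a history of GM-CSF expression differ from cells without it within the TEM compartment. P2rx7, Art2b, Cd38 and Adora2a lay higher in all 3 YFP+ libraries than in all 3 YFP- libraries, while Entpd1 and Nt5e overlapped. Of the members, 0 were called by limma at an adjusted p of 0.05 or less, 3 had an unadjusted p under 0.05, against 17.1% of all tested genes, and 4 did not overlap. Over all tested genes 2.3% were called higher, 4.67% lower, and 25% did not overlap in this comparison. No label says that the replicate numbers pair the libraries, and a replicate block rests on taking them to. With the replicate number as a block over all 4 groups, 3 members were called higher, namely Art2b, P2rx7 and Adora2a. In that fit 5.22% of all tested genes were called higher and 6.77% lower.

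Within the pairs of TEM libraries of the same number, P2rx7 was 1.55, 1.36 and 1.63 times as high in YFP+ as in YFP- cells for replicates 1, 2 and 3. All 3 pairs thus had more P2rx7 in the YFP+ cells. The log2 difference of 0.59 (SE 0.25) gave adjusted p = 0.232 in limma and 0.00272 with the replicate block. Art2b had ratios of 1.64, 1.505 and 1.51, nearly the same in each pair. The log2 difference was 0.63 (SE 0.18), with adjusted p = 0.0604 in limma and 2.3e-04 with the replicate block. Adora2a had ratios of 1.31, 1.24 and 1.37, the smallest rise of these 3 genes in the blocked fit, with a log2 difference of 0.38 (SE 0.11) and adjusted p = 0.0619 in limma, or 0.00374 with the replicate block.

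Cd38 had ratios of 1.47, 1.21 and 1.26 in the TEM pairs. All 3 were above 1, but the difference was not called in limma without the block (log2 fold change 0.39, SE 0.42, adjusted p = 0.774) or with it (adjusted p = 0.622). The Entpd1 ratios were 1.02, 1.00 and 0.999, and the log2 fold change of 0.01 had a 95% interval from -0.74 to 0.76. For Nt5e the ratios were 0.829, 1.26 and 1.04, so the pairs disagreed in direction, and the log2 fold change of 0.04 had a 95% interval from -0.41 to 0.49 (adjusted p = 0.974). Without TEM YFP+ replicate 2, where Nt5e was highest, it was -0.26. These intervals do not show that the groups are alike. The SE of a gene pools naive and TEM libraries, so it is not the spread of the TEM libraries alone. Cd38 and Entpd1 deviated most from a group mean in naive YFP+ replicate 2, by 1.30 and 1.05 in log2. In TEM libraries the deviations ran from -0.20 to 0.17 for Cd38 and from -0.08 to 0.11 for Entpd1.

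**Figure D2:**
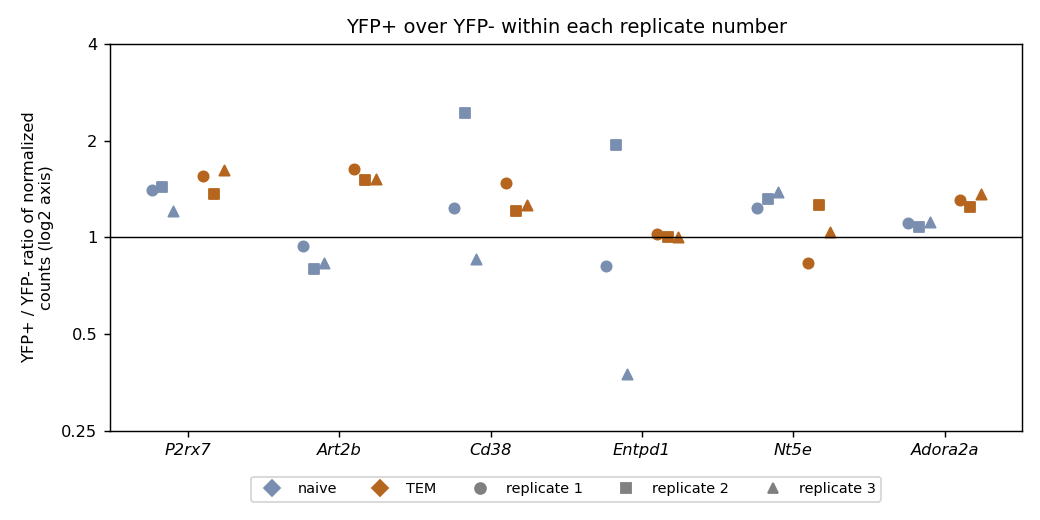
Ratio of normalized counts in YFP+ over YFP- libraries of the same replicate number (log2 axis) for each member in naive and TEM cells. In TEM cells P2rx7, Art2b, Cd38 and Adora2a lie above 1 in 3 of 3 pairs, Art2b lies below 1 in 3 of 3 naive pairs, and the naive ratios of Cd38 and Entpd1 scatter from 0.858 to 2.45 and from 0.376 to 1.94.

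Markers of other cell types moved in the same comparison. Of 10 plasmacytoid dendritic cell markers 9 fell in TEM YFP+ cells, with sums of 11029 to 20985 normalized counts in the YFP- libraries and 4473 to 7675 in the YFP+ libraries. Of 6 conventional dendritic cell markers 5 fell, from 43073 to 86969 to 2393 to 6064, and of 7 macrophage and neutrophil markers 3 fell, with sums from 7548 to 14587 in the YFP- libraries and from 1891 to 3690 in the YFP+ libraries. The neutrophil markers in that list lay the other way without overlap, S100a8 with 0 to 1.48 normalized counts in YFP- and 7.25 to 48.5 in YFP+ cells (limma adjusted p = 0.103) and S100a9 with 0 to 4.45 and 16.6 to 89.4 (adjusted p = 0.128). All 6 markers of invariant NKT cells rose, from 982 to 1201 to 6564 to 12946, and none of these markers was at 0 in all libraries of a TEM group. Foxp3 was the only 1 of 7 regulatory T cell markers called, and it fell. Both CD8 markers fell, 2 of 7 B cell markers (Cd79a and Ebf1) rose, and 0 of 5 plasma cell and 0 of 6 follicular helper markers were called by limma. The part of these cells in the differences of the members was not tested.

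Naive YFP+ and YFP- cells were compared in the same way. Of the members 0 were called by limma, and 0 had an unadjusted p under 0.05, against 3.32% of all tested genes with such a p, 0.00642% called higher and 0% called lower. Nt5e was the only member without overlap between the groups, which held for 5.38% of all tested genes. Its ratios in the pairs were 1.23, 1.31 and 1.38, with a log2 difference of 0.39 (SE 0.21) and adjusted p = 1 in limma, or 0.729 with the replicate block. P2rx7 had ratios of 1.40, 1.43 and 1.20 (log2 fold change 0.42, SE 0.25, adjusted p = 1) and Adora2a of 1.11, 1.08 and 1.11 (0.14, SE 0.11). Art2b lay lower in 3 of 3 naive pairs, with ratios of 0.943, 0.796 and 0.834 and a log2 fold change of -0.22 (SE 0.18). The naive values of Cd38 (0.45, SE 0.42) and Entpd1 (-0.25, SE 0.34) depended on naive YFP+ replicate 2 and 3: without replicate 2 the Cd38 value was -0.20, and without replicate 3 the Entpd1 value was 0.14. The summed regulatory T cell markers had 9001 to 11018 normalized counts in naive YFP- and 6335 to 7044 in naive YFP+ libraries. The CD8 markers had 1166 to 1321 and 500 to 608, and the sums of the other marker lists overlapped. No marker was called by limma, and the part of such cells in the differences of the members was not tested.

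The difference between the TEM and the naive effect of YFP was tested as an interaction. Art2b had the largest value of the members, 0.86 (SE 0.26, 95% interval 0.30 to 1.42, adjusted p = 0.112, limma), since it lay higher in YFP+ cells in all TEM pairs and lower in all naive pairs. It was called in limma with the replicate block (adjusted p = 0.00104), which takes the numbers to pair the libraries of all 4 groups. In that fit 1.88% of all tested genes were called higher and 3.83% lower. The interaction was 0.17 (SE 0.35) for P2rx7, 0.24 (SE 0.16) for Adora2a, -0.35 (SE 0.29) for Nt5e, 0.26 (SE 0.49) for Entpd1 and -0.06 (SE 0.60) for Cd38. By limma 0 members were called and 1 had an unadjusted p under 0.05, against 11.7% of all tested genes, with 0.828% of all tested genes called higher and 2.73% lower.

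**Figure D3:**
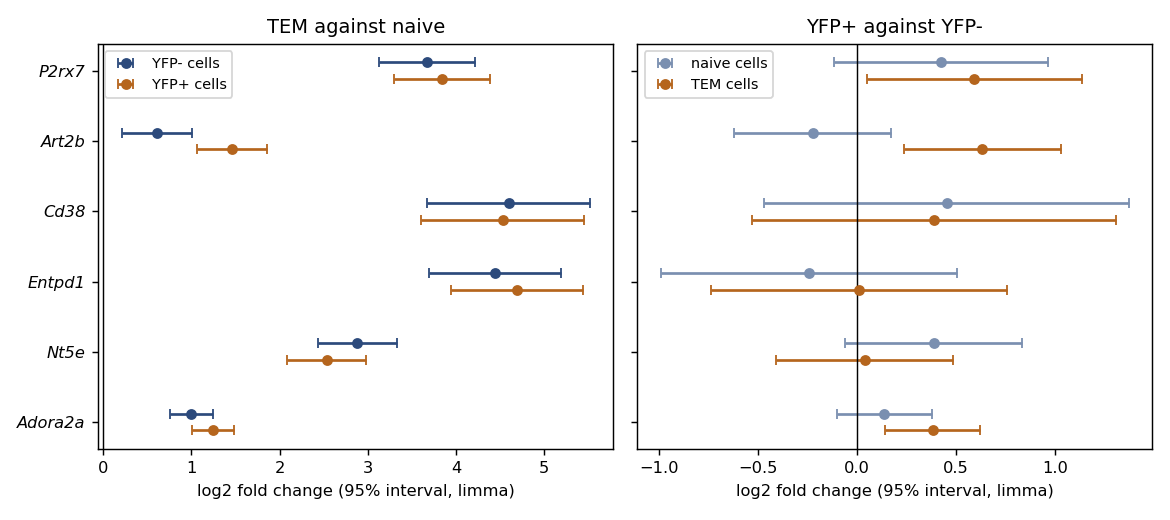
Log2 fold changes of the members with 95% intervals from limma, TEM against naive on the left and YFP+ against YFP- on the right (no member is called on the right). The intervals on the left lie above 0, and on the right those of P2rx7, Art2b and Adora2a in TEM cells do.

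For P2rx7 and Art2b the replicates differed in a way that the groups share. Both genes were highest in replicate 3, then replicate 1, then replicate 2, in each of the 4 groups. Adora2a had the same order except in TEM YFP- cells, where replicate 1 was highest. After the mean of each group was removed, their log2 values correlated over the 12 libraries with a Pearson coefficient of 0.94. The coefficient was 0.76 for P2rx7 with Adora2a, 0.76 for Art2b with Adora2a and -0.41 for P2rx7 with Nt5e. For Entpd1 with Cd38 it was 0.85, but both had their largest deviation in naive YFP+ replicate 2 (1.05 and 1.30). Coefficients of the other pairs of members ran from -0.75 (Cd38 with Adora2a) to 0.03 (Entpd1 with Nt5e). The replicate order of Entpd1 and that of Cd38 differed between groups. Deviations over all tested genes also correlated between YFP+ and YFP- libraries of the same number, within naive and within TEM cells. The points of a replicate number may not be independent of each other, no label says what a number stands for, and the coefficients between members carry no test. Xist had 11867 normalized counts or more in replicates 1 and 2 and at most 24.7 in replicate 3, and Ddx3y had 3869 or more in replicate 3 only. Sex and any other trait of the animals of replicate 3 cannot be told apart here.

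**Figure D4:**
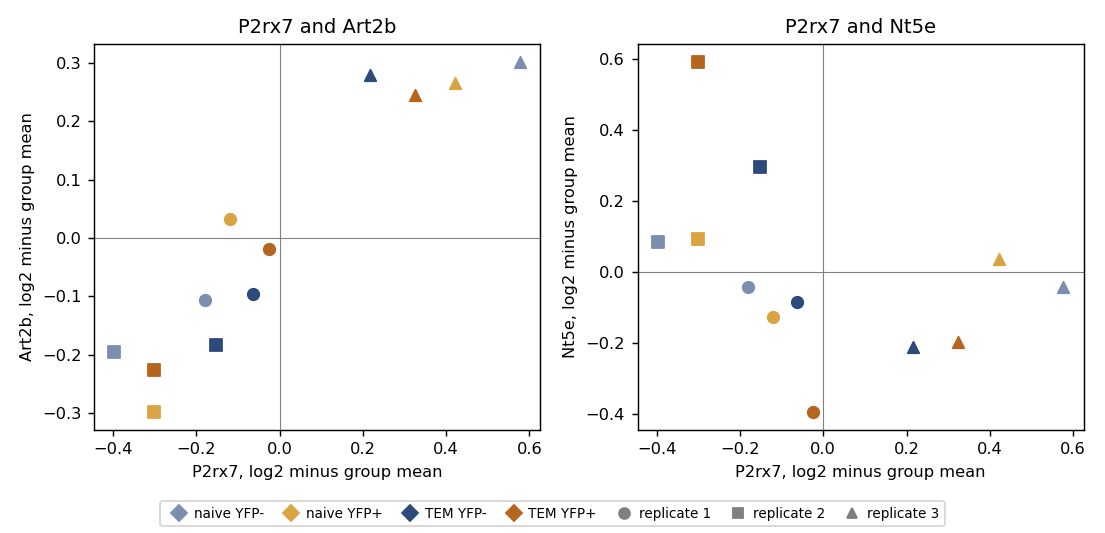
Log2 deviation of each library from its group mean, P2rx7 against Art2b (left) and P2rx7 against Nt5e (right), with colours for groups and shapes for replicate numbers. The 4 libraries of replicate 3 lie at the upper right on the left, where the coefficient is 0.94, and on the right it is -0.41.

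The genes most like each member were taken as the 3 with the highest Pearson coefficient of log2(normalized count + 1) over the 12 libraries, among 11692 named genes whose mean was 50 normalized counts or more. For P2rx7 they were Rab11fip1 (0.996), Capn2 (0.995) and Adam19 (0.993). For Art2b they were Cd226 (0.977), Gm4956 (0.966) and H2-K1 (0.960), and for Adora2a Sec24d (0.995), Itgal (0.994) and Nucb1 (0.992). Entpd1 was most like Myo1f (0.993), Myo1e (0.993) and Plekhg3 (0.992), and Cd38 most like Morrbid (0.995), Myo1f (0.995) and Serpina3g (0.994). For Nt5e they were Eea1 (0.997), Poglut3 (0.996) and Ptpn13 (0.995). The coefficients rest largely on the step between naive and TEM libraries, which all 6 members share, and they carry no test.

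The other genes of the purine and NAD pathways were read from a list of 50, of which 45 were in the table and 41 passed the filter. Between TEM and naive YFP- cells 24 of the 41 rose and 7 fell, and in YFP+ cells 14 rose and 5 fell. Over all tested genes, 29.9% were called higher and 19.9% lower in YFP- cells, and 24.7% and 16.7% in YFP+ cells. The median log2 fold changes over the 41 genes were 0.68 and 0.59. These genes rose beside the dendritic cell, macrophage and T cell subset markers given above, whose part in them was not tested. The 3 largest log2 fold changes in YFP- cells on this scale were 6.59 for P2ry6, a receptor for UDP, 6.09 for Trpm2, a cation channel opened by ADP-ribose, and 6.08 for P2ry1, a receptor for ADP. These sizes depend on the pseudocount, since naive counts were near 0, and P2rx5 (6.05) and Adora2b (5.98) lay just below with no reads in naive YFP- cells. P2ry1 had 1.06 to 4.61 normalized counts in naive YFP- cells and 176 to 349 in TEM YFP- cells. Trpm2 had 2.30 to 21.2 and 534 to 969.8 in these groups, and 100.4 to 205 in TEM YFP+ cells, but its difference between the TEM YFP groups was not called (log2 fold change -2.40, SE 0.87, adjusted p = 0.147). In the naive YFP+ libraries Trpm2 had 30.9, 235 and 15.8, the highest again in replicate 2.

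The counts by role stand beside 29.9% of all tested genes called higher and 19.9% lower in YFP- cells, and 24.7% and 16.7% in YFP+ cells. By role, 5 of 5 tested ectonucleotidases rose in TEM cells of either YFP status, with Enpp1, Enpp2 and Alpl beside Entpd1 and Nt5e. Of 7 tested NAD glycohydrolases and ecto-ADP-ribosyltransferases 5 rose and 2 fell in YFP- cells, and 4 rose and 1 fell in YFP+ cells. Art4, which fell with either YFP status, went from 883 to 999 normalized counts in naive cells to 48.2 to 115 in TEM cells without YFP. Of 8 genes of NAD synthesis 4 rose and 1 fell in YFP- cells, and 2 rose and 0 fell in YFP+ cells. Of 5 genes of ATP release and P2X7 partners 3 rose and 1, Slc17a9, fell with either YFP status. Of 7 genes of adenosine uptake and clearance 3 rose and 2 fell in YFP- cells, and 2 rose and 3 fell in YFP+ cells. Of 7 P2Y receptors 4 rose in YFP- cells and 1, P2ry1, in YFP+ cells. The P2X receptors in TEM YFP- cells gave 3 rises and 1 fall of 5, the fall being P2rx1, and in YFP+ cells P2rx7 alone rose among the 5.

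Between TEM YFP+ and YFP- cells, 7 of the 41 other genes fell and 0 rose by limma. Over all tested genes 4.67% were called lower and 2.3% higher. Of the 41, 17 had an unadjusted p under 0.05, a larger share than the 17.1% of all tested genes. Adora2b, the low-affinity receptor for adenosine, had 32.8, 53.4 and 134 normalized counts in TEM YFP- cells and 1.01, 0 and 7.60 in TEM YFP+ cells (log2 fold change -4.60, SE 0.82, adjusted p = 0.00379). P2ry6 had 174, 309.8 and 751 against 7.08, 7.25 and 29.5 (-4.77, SE 0.93, adjusted p = 0.00689), and Adora3 had 93.5, 108 and 251 against 13.1, 6.21 and 15.2 (-3.54, SE 0.72, adjusted p = 0.00854). P2rx5 had 60.7, 49.7 and 91.7 against 6.07, 18.6 and 2.85 (-3.03, SE 0.72, adjusted p = 0.0228). Adora3 lost its call in 3 of 20 alternatives, among them without TEM YFP- replicate 3 (adjusted p = 0.0562), and Adora2b and P2ry6 in 1 each. In each of these 4 receptor genes the YFP- libraries were all above the YFP+ libraries. They moved with the dendritic cell and macrophage markers given above, whose part in them was not tested.

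The remaining 3 genes lower in TEM YFP+ cells handle nucleosides. Pnp, which encodes purine nucleoside phosphorylase, had 2333, 2732 and 3049.9 normalized counts in YFP- cells and 1744, 2065 and 1940.0 in YFP+ cells (log2 fold change -0.49, SE 0.12, adjusted p = 0.0231). The nucleoside transporters Slc29a2 (-1.11, SE 0.29, adjusted p = 0.0344) and Slc29a3 (-0.50, SE 0.13, adjusted p = 0.037) were lower as well. Pnp, Slc29a2, Slc29a3 and P2rx5 each lost the call in at least 4 of the 6 fits that left out 1 TEM library, with adjusted p up to 0.127, 0.131, 0.162 and 0.113. In naive cells 0 of the 41 genes were called by limma. Of the 41, 4 had an unadjusted p under 0.05, a larger share than the 3.32% of all tested genes.

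**Figure D5:**
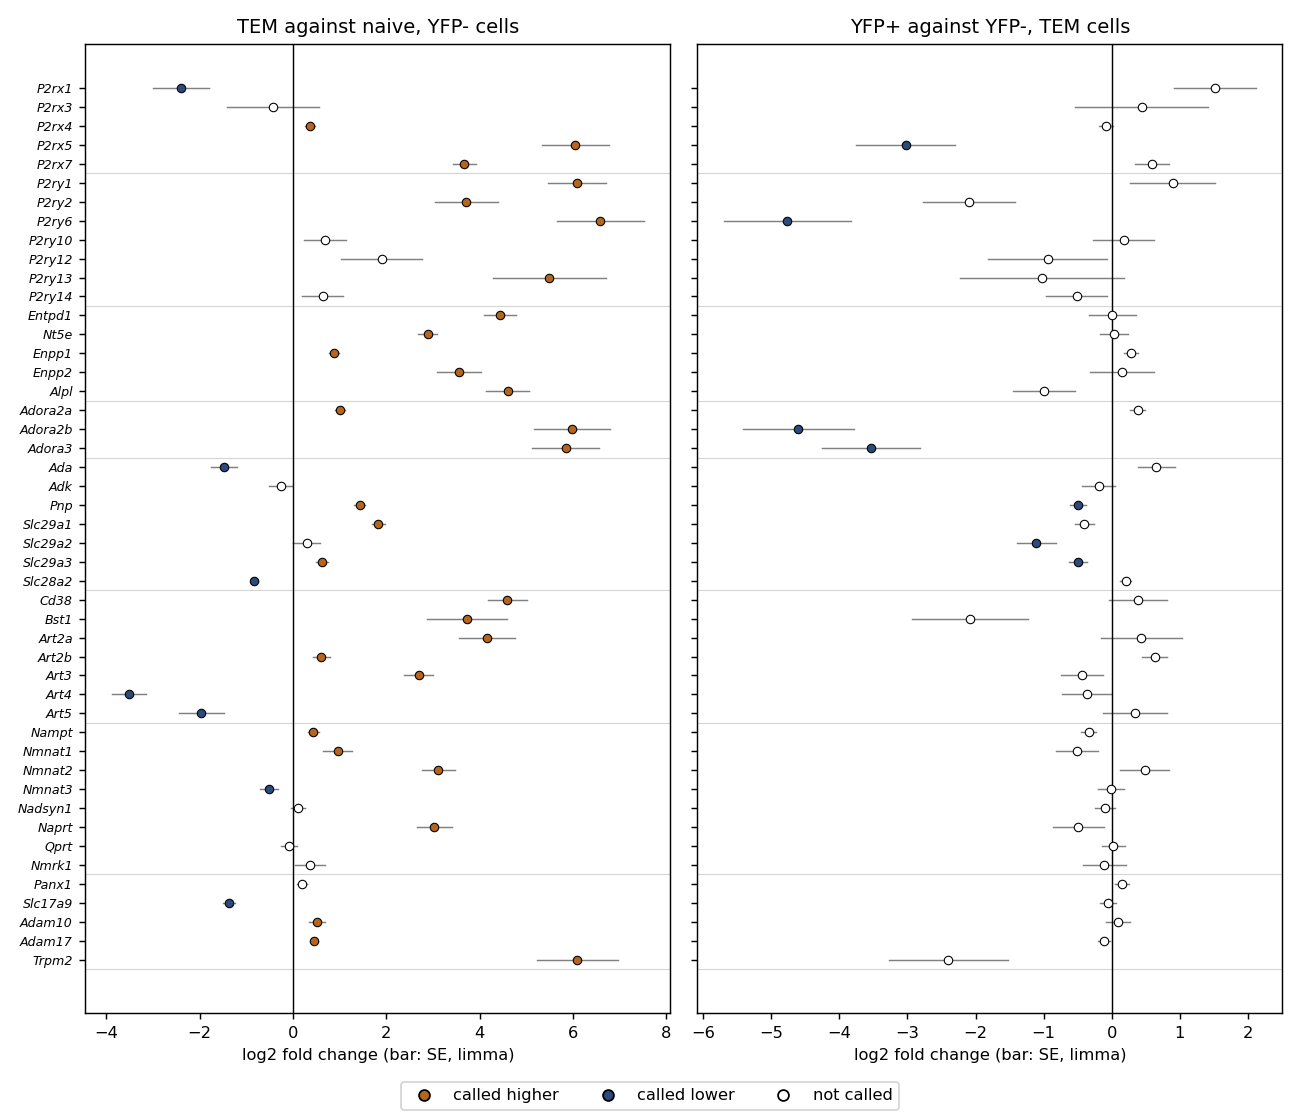
Log2 fold changes with SE (limma) of the tested purine and NAD genes grouped by role, TEM against naive YFP- cells on the left and TEM YFP+ against YFP- cells on the right, with filled points for called genes. On the left the 6 members and 24 other genes rise and 7 other genes fall, and on the right 7 other genes fall and none rises.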

How the data were processed

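Total RNA of CD4+ T cells sorted from spleens went into 12 stranded libraries. As deposited, the signal is a normalized count per gene: the authors mapped reads to mm10 with DRAGEN, counted them on genes with Rsubread and divided each library by its DESeq2 size factor. The annotation, strand setting and tool versions are not given in the sources used here. Whole reads were recovered from 100% of values (within 0.01 of a whole number), and 0 columns were left unused. Groups came from the sample titles.

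Names and coordinates were taken from RefSeq (GRCm38.p6) for 16749 of 17523 genes, while 774 had no name but were tested. Levels per kb used the length of the union of exons in GENCODE M21 (GRCm38), which also gave the strands of the genes. limma 3.58.1 (R 4.3.3; lmFit, contrasts.fit, eBayes with a trend) was run on log2(normalized count + 1) with 4 group means and 8 residual degrees of freedom, in 5 comparisons. The fit was tested on simulated counts with the same dispersion for all genes and no replicate effect, so that test does not cover differences shared by a replicate number. Error bars reflect the spread between libraries, which includes the uncertainty of counting where a gene had few reads.

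The 6 members, the pathway lists and the markers were chosen with earlier results of these data known. Genes named beside the members were those of the pathway lists called in a YFP comparison or in the interaction, the 3 largest TEM against naive YFP- cells, and the 3 most like each member. Listed genes that were not in the table are not analysed here.

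The replicate numbers were taken to pair the libraries because deviations from the group means correlated between libraries of the same number, with coefficients from 0.18 to 0.36 in TEM cells (YFP+ with YFP-), from 0.31 to 0.49 in naive cells and from 0.14 to 0.23 between TEM and naive YFP- cells. Between TEM and naive YFP+ cells they ran from -0.02 to 0.20, against -0.17 to 0.08 for different numbers, so these coefficients alone did not pair them. The Xist and Ddx3y levels given above set replicate 3 apart in every group and did not separate replicates 1 and 2. The alternatives were other pseudocounts, filters and scalings, the replicate block, edgeR 4.0.16 and DESeq2 1.42.0 on the recovered reads, and leaving out each library.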

Additional observations from a re-analysis of the deposited data

Results flagged for a closer look

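For 3 of the 41 tested genes of the wider list the effect of YFP differed between TEM and naive cells by the limma interaction term. All 3 were called lower, and over all tested genes 2.73% were called lower and 0.828% higher. The value was -4.20 for P2rx5 (SE 1.02, adjusted p = 0.0433), a P2X receptor, -5.73 for P2ry6 (SE 1.31, adjusted p = 0.0319) and -5.13 for Adora2b (SE 1.15, adjusted p = 0.0289). In the 3 naive YFP- libraries P2rx5 and Adora2b had no reads, so these values depend on the pseudocount. P2rx5 lost the call in 15 of 24 alternatives, P2ry6 in 9 and Adora2b in 12. By the same limma term 9 of 10 plasmacytoid dendritic cell, 5 of 6 conventional dendritic cell and 3 of 7 macrophage and neutrophil markers were called lower. The plasmacytoid marker Ccr9, 4 of 6 invariant NKT markers and the regulatory T cell marker Il2ra were called higher. No marker of the other lists was called, and the part of such cells in the 3 values was not tested.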

How the results depend on the processing

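All values that change here are counts of calls or log2 fold changes, and except where stated the cause was not tested. Between TEM YFP+ and YFP- cells 0 members were called in the limma fit, 1 by edgeR or after quantile normalization, 2 by DESeq2, with TMM factors or in a fit of only the libraries compared, and 3 with the replicate block, in limma, DESeq2 or edgeR (the last chosen after seeing the data). Leaving out 1 library gave 0 to 1 there, with Art2b called without TEM YFP- replicate 3 (adjusted p = 0.0486) or TEM YFP+ replicate 2 (adjusted p = 0.0472). In the interaction 1 member, Art2b, was called with the replicate block, in limma, DESeq2 or edgeR, or with DESeq2 alone. The block changed no other call of a member. The 6 members called between TEM and naive YFP- cells became 5 without naive YFP- replicate 2 or TEM YFP- replicate 3. Of the other purine and NAD genes, 7 were called between the TEM YFP groups. The count was 4 with a pseudocount of 0.1 or a log2 fold change of 2 or more, 11 by DESeq2 with the replicate block, 3 without the TEM libraries of replicate 2 (chosen after seeing the data), and 2 to 7 with 1 library left out, lowest without TEM YFP- replicate 3. In naive cells 2 were called by DESeq2 with the replicate block against 0. In the interaction 3 became 0 with a pseudocount of 0.1, 1 with no variance trend, 5 by quantile normalization, DESeq2 or edgeR with the block, 6 with a pseudocount of 5, 7 with the block, 10 by DESeq2 with the block, and 0 to 3 with 1 library left out. Requiring a log2 fold change of 2 or more left 17 of 31 between TEM and naive YFP- cells and 7 of 19 in YFP+ cells.

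No called value of a named gene changed sign in these alternatives. Among values that were not called, for Nt5e between the TEM YFP groups the value was -0.0014 after quantile normalization, -0.11 without the TEM libraries of replicate 2 and from -0.26 to 0.24 with 1 library left out. For Entpd1 it ran from -0.040 to 0.066 with 1 library left out. The interaction of Cd38 was 0.079 after quantile normalization and from -0.39 to 0.58 with 1 library left out, that of P2rx7 from -0.12 to 0.38 and that of Entpd1 from -0.13 to 0.78. In naive cells Cd38 ran from -0.20 to 0.78 and Entpd1 from -0.77 to 0.14.

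Depth limits the values of receptor genes that had few reads in naive cells. The split of reads between Art2b and Art2a is uncertain.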
